A study of Homo sapiens with 12 samples.

Results

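The departure from additivity of both drugs was measured over all 12 libraries of the study, 3 in each of 4 groups, as the contrast Combination minus CAR minus JQ1 plus CON on the log2 scale. The cells were MDA-MB-231, an established line from a triple-negative breast cancer with mesenchymal features. The Combination group received 10 µmol/L of CAR, named in the series title as cardamonin, together with 25 µmol/L of JQ1. The CAR group received 10 µmol/L of CAR, the JQ1 group 25 µmol/L of JQ1, and the control group, CON in the titles, DMSO. All groups are labelled WT in genotype, no further agent is given, and no time of treatment is stated. The libraries hold poly(A) RNA of 1 cell line. The labels do not say whether the replicates of a group are separate cultures; p-values therefore reflect the spread among these 12 samples alone, and that spread may be technical. Of 16384 genes listed, 12645 passed the expression filter and were tested.

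JQ1 occupies the acetyl-lysine pockets of the BET proteins, which displaces them from chromatin and lowers transcription of many genes that depend on the elongation factor P-TEFb. Cardamonin is a plant chalcone with an electrophilic group, and electrophiles of this kind modify KEAP1, the protein that holds the antioxidant factor NRF2 back. Additivity of levels rather than of log2 changes is another possible rule, and its results are given near the end. The rule used here takes the fold changes of 2 drugs to multiply, so their log2 changes add. The departure is the log2 ratio of the level found in Combination to the level that this rule gives. A positive departure means a level above the rule and a negative departure a level below it. It does not by itself say whether a gene was higher or lower than in CON, so each called gene was also sorted by the direction of its change under each drug alone.

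The libraries held 17449715 to 19754456 counts in total. Levels are in CPM, each count set against the library total and scaled by the normalization factors of the fit, and 3 counts then equal 0.147 to 0.177 CPM. CON replicate 3 stood apart, with a chi-square per degree of freedom of 10.6 and 12.6 when set against replicates 1 and 2, and 1.46 to 2.31 for any other pair of replicates. Of 20 hepatocyte markers, 19 had their highest count in Combination replicate 1. Their summed level was 15.8, 18.5 and 218 CPM (lowest, median and highest library) in Combination, 18.9 to 20.6 CPM in CAR, 15.5 to 17.4 CPM in JQ1 and 19.0 to 21.1 CPM in CON. Of the hepatocyte markers 4 could be tested, and 2 of them, CYP2E1 and SERPINA1, were called with a positive departure. SERPINA1 had 165 counts in Combination replicate 1 and 30 in each of replicates 2 and 3. Its departure was 3.25 (adjusted p = 0.0417 by edgeR), and the call was lost without any 1 CAR, JQ1 or CON library. VIM, which marks this line, had 528 to 2199 CPM over the 12 libraries, while CDH1, ESR1 and PGR had at most 13 counts in any library. Of 16 markers of leukocytes, endothelium and fibroblasts, 5 could be tested and 0 were called in the departure by edgeR (0 with DESeq2, 1 at an unadjusted p under 0.05, 1 without Combination replicate 1 and 1 on the linear scale).

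The departure was called in 4841 of 12645 genes (38.3%) at an adjusted p under 0.05 (quasi-likelihood test of edgeR, adjusted over all genes tested by the Benjamini-Hochberg method, the source of every adjusted p here). It was positive in 2536 genes (20.1%) and negative in 2305 (18.2%). Without CON replicate 3 the number was 5864, without Combination replicate 1 it was 4332, and without either it was 5547. The median size of the called departures was 0.39 on the log2 scale, the smallest called was 0.12, and 276 positive and 126 negative ones reached 2-fold. Over all genes tested the median departure was 0.01 and its median size 0.23. The scaling holds this median near 0, so a departure shared by all genes cannot be read from it. It was -0.0152 with scaling by total count and 0.0278 with upper-quartile scaling. The plot of the combined change against the sum of the single-drug changes shows the called genes on both sides of the additive line. The 409 tested genes with a group at or under 3 counts per library held 49 of these calls.

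**Figure D1:**
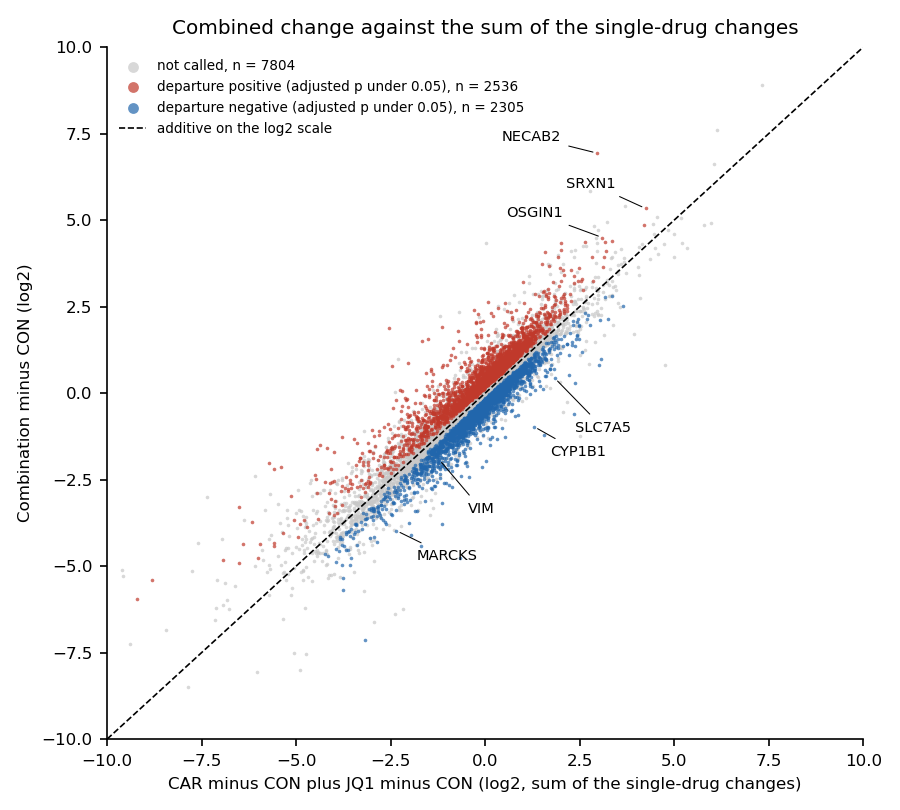
Each point is 1 of 12645 genes. The horizontal axis gives the sum of the log2 changes under CAR and under JQ1, each against CON, and the vertical axis the log2 change in Combination against CON; the dashed line marks additivity. The 2536 genes with a positive departure (red) lie above the line and the 2305 with a negative one (blue) below it, with NECAB2 the farthest above among the genes named.

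Sorted by the single-drug changes, 1131 called genes were cases of synergy (8.94% of the genes tested, 23.4% of those called). In 276 of them (2.18%) both drugs alone moved the gene the same way and the Combination went further than the sum, 110 higher and 166 lower. In 775 (6.13%) JQ1 alone was called, CAR alone was not, and the JQ1 change was enlarged. In 80 (0.633%) the CAR change was enlarged in the same sense. Antagonism covered 1610 genes (12.7% of the genes tested, 33.3% of those called). Both drugs moved 777 of these (6.14%) the same way and the sum was not reached, 356 higher and 421 lower. The JQ1 change was reduced in 479 (3.79%) and the CAR change in 354 (2.8%).

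The remaining calls were mostly genes that the drugs moved in opposite directions. Of these 1892 genes (15% of the genes tested, 39.1% of those called), 1678 (13.3%) ended closer to the JQ1 side than the sum gives and 214 (1.69%) closer to the CAR side. Genes called in neither single-drug contrast made up the last 208 (1.64%). The contrasts that sort the genes share libraries with the departure itself: a CON value read too high lowers both single-drug changes and raises the departure. That moves a gene lower under both drugs towards antagonism and a gene higher under both towards synergy. A CAR value read too high raises the CAR change and lowers the departure, and one read too low does the reverse. JQ1 values act likewise on the JQ1 change. Such errors move genes towards reduced changes, and opposed genes towards the side of the other drug. The class counts therefore have no test of their own. With any library left out, synergy covered 952 to 1305 genes and antagonism 1427 to 1975.

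**Figure D2:**
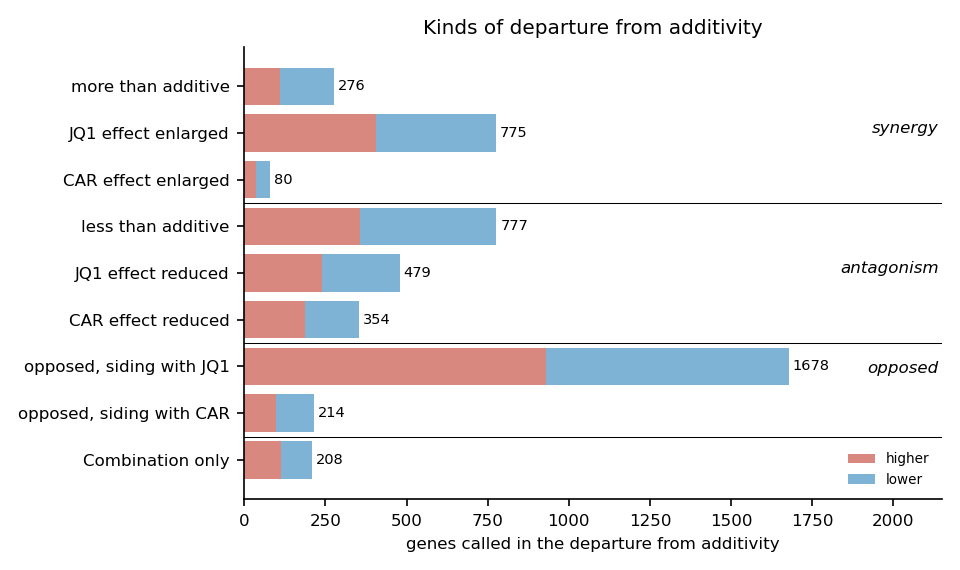
Bars give the number of genes in each kind of departure, out of 4841 called. Red and blue split each bar into genes higher and lower than CON under the drug that defines the class (JQ1 for the opposed classes, and the sign of the departure for Combination only). Opposed genes siding with JQ1 are the longest bar, at 1678, and an enlarged CAR effect the shortest, at 80.

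For most genes that both drugs moved the same way no departure was called, which does not show that they were additive. Of the 1046 genes higher under both drugs, 580 had no called departure, 356 had a negative and 110 a positive one. Of the 1452 genes lower under both, 865 had none, 421 a positive and 166 a negative one, and 208 of the 865 were under 1 CPM in Combination. Over all genes, 27.3% were called higher and 30.1% lower in CAR than in CON, 41.5% higher and 42.2% lower in JQ1, and 42.6% higher and 42.8% lower in Combination. In 3249 genes (25.7%) the Combination passed both single drugs and CON in 1 direction, 1672 higher and 1577 lower. Among these the departure went the same way in 922 of the higher and 867 of the lower genes, and it was not called in 707 and 667.

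Additivity can also be read from what is left of 1 drug's change on top of the other. CAR minus CON was called in 7250 genes (57.3%), with a median size of 0.34 on the log2 scale. On top of JQ1 (Combination minus JQ1, called in 51.9% of all genes, 26% higher and 25.9% lower) 3623 of these 7250 changed the same way, 666 (9.19%, or 5.27% of all genes) the opposite way, and 2961 (40.8%) were not called. JQ1 minus CON was called in 10580 genes (83.7%), with a median size of 0.74. On top of CAR (Combination minus CAR, called in 85.4% of all genes, 42.4% higher and 43% lower) 9449 of these 10580 (89.3%) changed the same way, 216 (2.04%, or 1.71% of all genes) the opposite way, and 915 (8.65%) were not called. In each pair the contrasts share no library. Across 12645 genes, which are not independent replicates, Pearson's r was 0.43 for CAR alone against CAR on JQ1, and 0.93 for JQ1 alone against JQ1 on CAR. A gene's difference between the contrasts of a pair is its departure, which is the same in both pairs. The higher r goes with the larger JQ1 changes and does not show that JQ1 was nearer to additivity.

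Masking was counted where a drug's own change was called but on top of the other drug it was not called and under 0.5 of its size, among genes called in the departure. JQ1 masked the CAR change in 1375 genes (10.9% of the genes tested), 647 that CAR raised and 728 that it lowered. CAR masked the JQ1 change in 393 genes (3.11%), 185 higher and 208 lower under JQ1. As a share of the changes called alone, this was 19.0% for CAR and 3.71% for JQ1. Among changes of at least 2-fold the shares were 20.6% (114 of 553) for CAR and 1.11% (42 of 3788) for JQ1. These shares were not tested against each other, and the median CAR change was smaller than the median JQ1 change. CAR libraries enter the change under CAR alone but not the change on top of JQ1. An error in them can therefore add masked CAR changes, and JQ1 libraries act likewise on masked JQ1 changes.

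**Figure D3:**
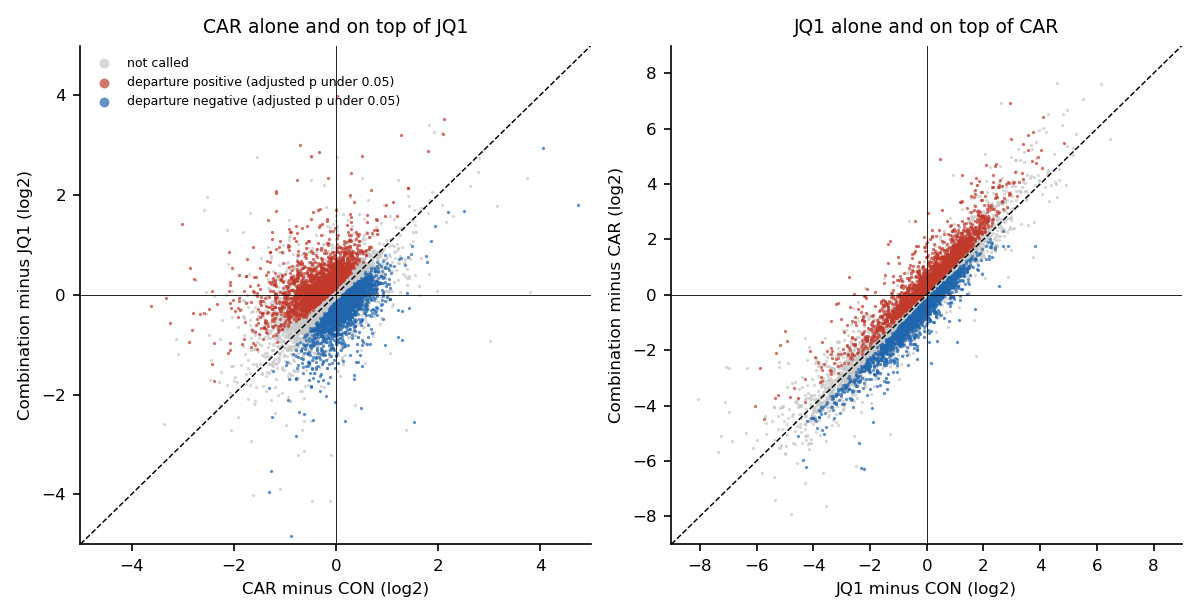
Each point is 1 of 12645 genes. The left panel plots the log2 change under CAR alone against the change CAR made on top of JQ1, and the right panel the same for JQ1 alone and on top of CAR; dashed lines mark equal change, which is additivity. A gene's vertical distance from the line is its departure and is the same in both panels, whose axes differ in range. The correlation was r = 0.43 for CAR and r = 0.93 for JQ1, whose changes were larger in the median. Red and blue genes have a called positive or negative departure.

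The highest departure belonged to NECAB2, a neuronal calcium-binding protein gene (chr16:83968632-84002776, plus strand, GENCODE v29 on GRCh38, as all gene positions here). NECAB2 had 180.4, 172 and 174 CPM in Combination, 1.93, 1.08 and 1.30 in CAR, 9.76, 11.9 and 11.4 in JQ1, with 1.23, 1.17 and 1.86 in CON. All 3 Combination libraries lay above every other library, and CAR and CON overlapped. The level that additivity gives was 11.1 CPM, and the departure was 3.98 ± 0.25 (adjusted p = 1.18e-09 by edgeR). NECAB2 lies 2299 bases after the end of OSGIN1, an NRF2 target on the same strand (chr16:83948282-83966332, plus strand). OSGIN1 had 550.2, 587 and 569 CPM in Combination, 118, 108 and 105 in CAR, 47.3, 50.7 and 50.3 in JQ1, with 24.5, 23.8 and 27.4 in CON, so it too was highest in Combination, but it was 4.37-fold higher in CAR than in CON while NECAB2 was not called there. Whether NECAB2 reads come from transcripts that run on from OSGIN1 was not tested, and the pair was chosen after its values were seen.

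Part of the NRF2 programme was synergistic. GCLM, the regulatory subunit of the enzyme that starts glutathione synthesis, had 1130, 1139 and 1079 CPM in Combination, 392.1, 382 and 407 in CAR, 119, 119.8 and 117 in JQ1, with 93.2, 91.7 and 89.0 in CON. The Combination libraries were above all others without overlap. Their mean was 2.18-fold above the 511.6 CPM of the additive rule (departure 1.12 ± 0.05, adjusted p = 4.82e-12 by edgeR). SRXN1, sulfiredoxin, which repairs oxidized peroxiredoxins, had 7036, 7057 and 6876 CPM in Combination, 624, 589 and 596 in CAR, 950.0, 933 and 949 in JQ1, with 169, 169 and 183 in CON. It was 40.3-fold higher in Combination, 3.48-fold in CAR and 5.45-fold in JQ1 than in CON, and its departure was 1.09 ± 0.05. SQSTM1, the autophagy receptor p62 that also binds KEAP1, had a departure of 0.72 ± 0.06 with 3268 ± 73.6, 895 ± 28.5, 746 ± 16.8 and 335 ± 17.9 CPM (SD, n = 3 each) in Combination, CAR, JQ1 and CON.

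The NRF2 list as a whole was mixed. The counts of this and every later list are to be read against 20.1% positive and 18.2% negative over all genes. Of 35 NRF2 targets tested, 9 had a positive (25.7%) and 8 a negative (22.9%) departure, with a median of -0.02. Even so, 20 of the 35 passed both single drugs and CON in Combination. More than additive were also PRDX1, a peroxiredoxin, GSR, glutathione reductase, and ABCC1, an exporter of glutathione conjugates, which were picked after their values were seen. Less than additive were FTH1, the ferritin heavy chain (-0.56 ± 0.07), NQO1, a quinone reductase (-0.36 ± 0.05), and SLC48A1, a haem transporter (-1.02 ± 0.09). HMOX1, which breaks down haem, had 58.1, 63.2 and 60.9 CPM in Combination, 130.2, 135 and 128 in CAR, 8.53, 8.56 and 7.69 in JQ1, with 18.3, 17.5 and 17.6 in CON. Its CAR change was log2 2.88 on top of JQ1 and 2.87 alone, and its departure was 0.00 ± 0.09 (95% interval -0.18 to 0.19). FTL, the ferritin light chain, was 13.2-fold higher in Combination than in CON with a departure of 0.12 ± 0.08 that was not called (adjusted p = 0.222 by edgeR). The count of 8 negative targets was 5 without Combination replicate 1, without CAR replicate 2 or without JQ1 replicate 1, and reads of FTH1 and FTL may be shared with their pseudogenes.

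MAFG, a small partner protein of NRF2, is an example of a CAR change that was enlarged. MAFG had 237, 240.5 and 228 CPM in Combination, 146, 143 and 143 in CAR, 102, 104 and 105 in JQ1, with 109, 108 and 104 in CON. JQ1 and CON overlapped in part, CAR lay above them, and Combination lay above CAR; the departure was 0.75 ± 0.05. ASNS, the asparagine synthetase and an ATF4 target, had 289, 296 and 270.0 CPM in Combination, 61.1, 70.1 and 64.6 in CAR, 96.4, 94.6 and 99.2 in JQ1, with 48.5, 53.2 and 56.5 in CON and a departure of 1.25 ± 0.08, more than additive. Of its list, the ATF4 and unfolded protein response, 6 of 26 genes (23.1%) had a positive and 3 (11.5%) a negative departure. The median was -0.01, and 6 genes were negative without CON replicate 3. Over all genes 20.1% were positive and 18.2% negative.

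Genes of hypoxia and glycolysis were the list with the highest share of calls. Of 31 tested, 23 had a positive and 3 a negative departure (83.9% called, against 38.3% of all genes), with a median of 0.41. Over the list the median change was 0.63 in Combination, 0.18 in CAR and 0.22 in JQ1, each against CON, and 19 genes passed both drugs in Combination. Between 23 and 24 genes were positive when any library was left out. The 26 calls comprised 12 cases of synergy, 3 of antagonism, 9 opposed and 2 of Combination only. The HIF factors are known to switch these genes on when oxygen or iron is short, and they encode glycolytic enzymes, prolyl hydroxylases and mitophagy receptors.

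The promoters of 6 genes are shown because most called departures of their lists were positive or, for GCLM, as the first example of NRF2 synergy above. They are the 250 bases before the start given by RefSeq on GRCh38.p14, 5′ to 3′ on the gene's strand. Capitals mark the core letters of the factor known for each list on either strand: ACGTG, the core of the hypoxia response element, in LDHA, BNIP3 and P4HA1; CACGTG, the E-box of the TFEB family, in MCOLN1 and NEU1; and TGACNNNGC, the core of the antioxidant response element, in GCLM.
LDHA, chr11:18394313-18394562, plus strand: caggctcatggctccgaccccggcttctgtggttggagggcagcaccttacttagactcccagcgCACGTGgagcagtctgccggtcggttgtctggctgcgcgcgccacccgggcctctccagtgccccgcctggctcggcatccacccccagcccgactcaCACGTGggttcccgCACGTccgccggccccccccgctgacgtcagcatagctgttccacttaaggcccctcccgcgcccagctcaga
BNIP3, chr10:131981924-131982173, minus strand: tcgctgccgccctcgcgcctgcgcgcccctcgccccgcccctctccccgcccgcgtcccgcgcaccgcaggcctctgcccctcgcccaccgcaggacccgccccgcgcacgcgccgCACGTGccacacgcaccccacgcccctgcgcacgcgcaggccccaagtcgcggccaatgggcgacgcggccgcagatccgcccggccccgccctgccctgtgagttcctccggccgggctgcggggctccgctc
P4HA1, chr10:73096867-73097116, minus strand: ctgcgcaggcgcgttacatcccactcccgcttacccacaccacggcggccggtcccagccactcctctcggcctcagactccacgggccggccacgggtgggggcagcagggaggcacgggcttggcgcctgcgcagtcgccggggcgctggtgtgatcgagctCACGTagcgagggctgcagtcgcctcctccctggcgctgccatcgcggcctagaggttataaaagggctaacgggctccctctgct
MCOLN1, chr19:7522374-7522623, plus strand: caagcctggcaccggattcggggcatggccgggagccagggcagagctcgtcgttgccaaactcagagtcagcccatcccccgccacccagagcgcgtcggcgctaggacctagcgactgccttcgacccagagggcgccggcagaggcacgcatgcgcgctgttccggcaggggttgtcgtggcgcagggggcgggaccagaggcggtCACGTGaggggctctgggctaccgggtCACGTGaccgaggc
NEU1, chr6:31862822-31863071, minus strand: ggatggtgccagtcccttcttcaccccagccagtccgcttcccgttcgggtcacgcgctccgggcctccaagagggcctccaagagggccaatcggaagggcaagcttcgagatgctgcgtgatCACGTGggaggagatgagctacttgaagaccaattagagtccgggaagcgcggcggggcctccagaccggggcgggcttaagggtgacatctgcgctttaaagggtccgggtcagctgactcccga
GCLM, chr1:93909431-93909680, minus strand: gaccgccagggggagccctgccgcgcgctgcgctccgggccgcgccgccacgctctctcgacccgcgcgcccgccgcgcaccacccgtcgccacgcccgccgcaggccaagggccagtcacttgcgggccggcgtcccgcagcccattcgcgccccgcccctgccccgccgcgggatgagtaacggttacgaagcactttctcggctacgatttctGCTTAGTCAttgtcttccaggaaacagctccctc
CACGTG holds ACGTG on both strands, so the motifs overlap. Of 12645 genes tested, 10253 had a promoter in the table, of which 23.3% held ACGTG, 8.88% CACGTG and 11.9% TGACNNNGC. ACGTG was in 12 of 28 promoters of the hypoxia and glycolysis list (42.9%), in 10 of 20 of those with a positive departure and in 2 of 8 of the others. In the autophagy and lysosome list, CACGTG was in 6 of 23 promoters (26.1%), in 5 of 13 with a positive departure and in 1 of 10 of the others. The same 23 promoters held ACGTG in 10 (43.5%) and TGACNNNGC in 7 (30.4%). In the NRF2 list TGACNNNGC was in 5 of 24 promoters (20.8%), a lower share than in the lysosome list, in 1 of 5 with a positive departure and in 4 of 19 of the others. These are matches of letters in these windows only. The 6 promoters shown were picked by hand and all hold their letters, unlike most promoters of their lists.

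LDHA, the lactate dehydrogenase subunit that ends glycolysis, had 4086, 4231 and 4133 CPM in Combination, 2111, 2098 and 2158 in CAR, 2187, 2193 and 2176 in JQ1, with 1839, 1868 and 1925 in CON. The Combination libraries lay above all others, and CAR and JQ1 lay close to each other above CON. The sum of the single-drug changes gives 2471 CPM, and the departure was 0.75 ± 0.04 (adjusted p = 1.68e-10 by edgeR). BNIP3, a mitophagy receptor, had 554, 581 and 552 CPM in Combination, 216, 215 and 208 in CAR, 235, 235 and 229.8 in JQ1, with 179, 171 and 187 in CON and a departure of 1.02 ± 0.05. P4HA1, a prolyl 4-hydroxylase of collagen, had 552, 541 and 529 CPM in Combination, 136, 139.6 and 139.8 in CAR, 254, 257 and 255 in JQ1, with 117, 110.2 and 119.6 in CON and a departure of 0.82 ± 0.05. The related gene P4HA2 was opposed, lower in CAR and higher in JQ1 than in CON, with a departure of 1.07 ± 0.07. Against the list went EPAS1, which encodes HIF-2α, with 174, 177 and 175 CPM in Combination, 55.2, 58.2 and 55.0 in CAR, 298, 296 and 289.5 in JQ1, with 55.3, 55.3 and 55.2 in CON and a departure of -0.77 ± 0.05, and SLC2A1, the glucose transporter GLUT1, with -0.25 ± 0.06.

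Autophagy and lysosome genes were positive in 16 of 29 and negative in 3 (5 without CON replicate 3), with a median departure of 0.22. Their median change was 0.86 in Combination, 0.01 in CAR and 0.66 in JQ1. MCOLN1, the lysosomal calcium channel, had 117, 127 and 112 CPM in Combination, 21.4, 23.0 and 20.4 in CAR, 50.03, 49.8 and 54.9 in JQ1, with 18.1, 17.1 and 17.4 in CON, with Combination above every other library and a departure of 0.91 ± 0.09. NEU1, the lysosomal sialidase, had 587, 588 and 567 CPM in Combination, 89.5, 86.7 and 84.6 in CAR, 371, 351 and 373 in JQ1, with 82.5, 83.2 and 94.7 in CON. CAR and CON overlapped, and the JQ1 change was enlarged by 0.67 ± 0.07. ATP6V0D1, a subunit of the proton pump, had a departure of 0.57 ± 0.06. The transcription factor MITF went the other way (-1.06 ± 0.18), as did NPC1, the cholesterol exporter of lysosomes (-0.34 ± 0.06).

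**Figure D4:**
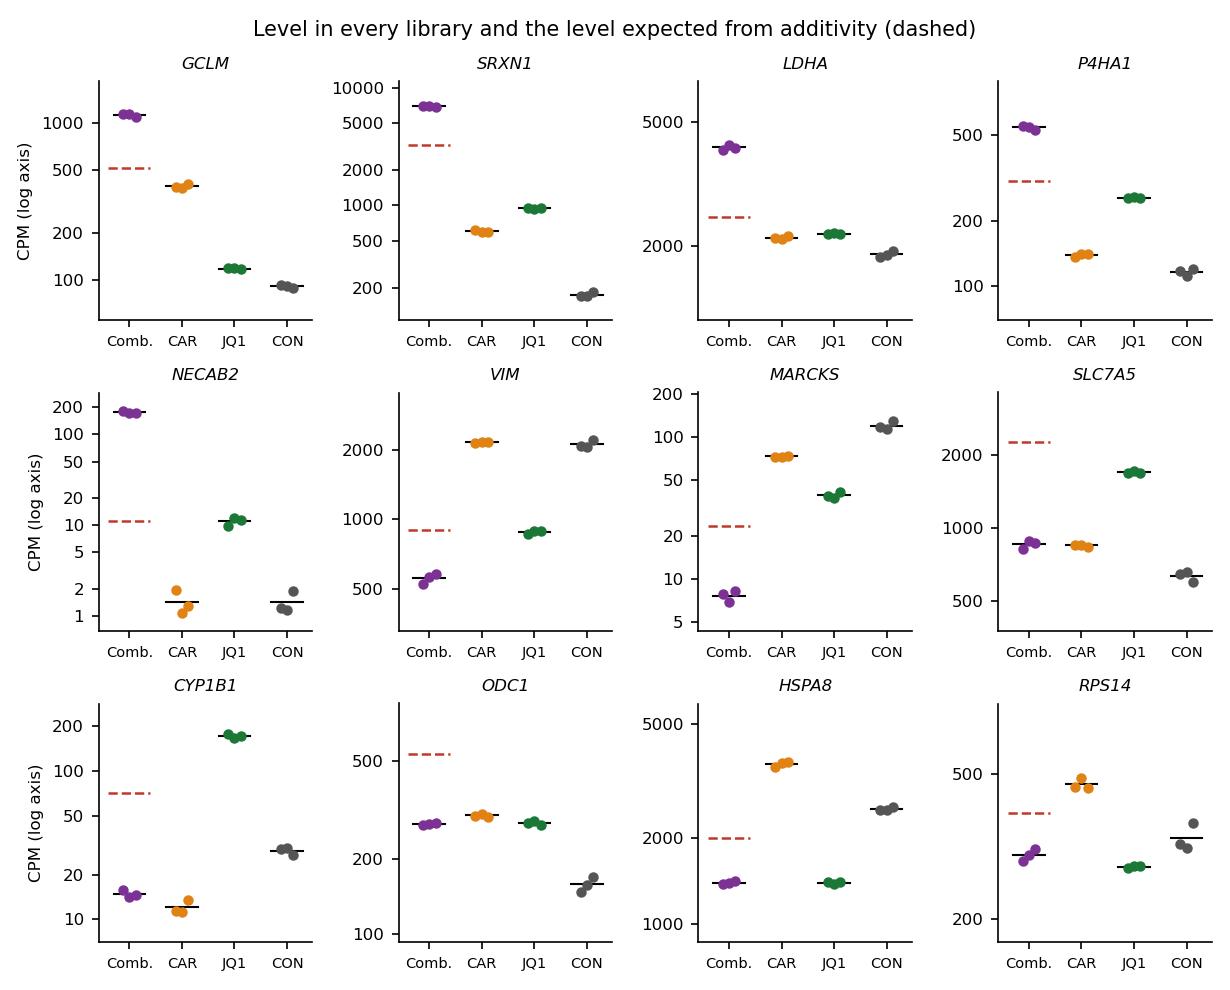
Points give the level of 12 genes in each of the 3 libraries of Combination, CAR, JQ1 and CON, in CPM on a log axis, and black lines the group means. The red dashed line over Combination is the level expected if the log2 changes of CAR and JQ1 added. In GCLM, SRXN1, LDHA, P4HA1 and NECAB2 the Combination lies above it, and in the other 7 genes below it.

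Among genes that fell, VIM and MARCKS went below the additive level. VIM, vimentin, the intermediate filament of mesenchymal cells, had 528, 567 and 584 CPM in Combination, 2144, 2151 and 2152 in CAR, 870.2, 892 and 896 in JQ1, with 2073, 2056 and 2199 in CON. CAR and CON overlapped, JQ1 lay below both, and Combination was the lowest; the departure was -0.69 ± 0.05 (adjusted p = 5.37e-09 by edgeR). MARCKS, an actin-binding substrate of protein kinase C, had 7.91, 6.86 and 8.2 CPM in Combination, 72.7, 72.8 and 74.1 in CAR, 38.4, 37.3 and 41.1 in JQ1, with 118, 115 and 129 in CON and a departure of -1.62 ± 0.10, 3.08-fold below the additive level. KRT7, a keratin, had 20.3, 22.0 and 21.9 CPM in Combination, 120.0, 119 and 117 in CAR, 62.2, 63.2 and 68.2 in JQ1, with 146, 140.4 and 146 in CON and a departure of -1.31 ± 0.07. In each of these the 3 Combination libraries were the lowest of the 12.

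The mesenchymal and epithelial lists were mixed. Of 25 mesenchymal and EMT genes, 9 had a positive and 4 a negative departure, with a median of 0.05. SNAI2, the EMT factor SLUG, had a log2 change of -0.20 in Combination and -0.80 in JQ1, each against CON, and a departure of 0.52 ± 0.09. CCN2, the connective tissue growth factor, was positive at 0.50 ± 0.05 and LOXL2, a collagen crosslinker, at 0.41 ± 0.05. Of 14 epithelial and luminal genes, 2 were positive (4 without CON replicate 3) and 6 negative, KRT7 and KRT18 more than additive in the lower direction and CLDN4, a tight junction protein, positive at 0.51 ± 0.06.

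Genes that CAR raised and JQ1 lowered carried much of the negative side. In all, 1852 genes were higher under CAR and lower under JQ1, and of these 749 had a negative and 117 a positive departure. The reverse pattern, lower under CAR and higher under JQ1, held for 1853 genes, of which 929 had a positive and 97 a negative departure. Of 33 genes of MYC and ribosome biogenesis, 21 had a negative (63.6%, against 18.2% of all genes) and 0 a positive departure. The median was -0.34, and 16 of the 21 were opposed genes siding with JQ1. By edgeR 0 were positive also at an unadjusted p under 0.05, and by DESeq2 0 were positive. The list's median change was -0.11 in Combination, 0.64 in CAR and -0.48 in JQ1. Under the other scalings tried, 21 to 24 were negative and 0 positive, and without CON replicate 3, 28 were negative.

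DDX21, a helicase of ribosomal RNA processing, had 195, 194 and 199 CPM in Combination, 473, 462 and 488 in CAR, 167, 166 and 159.9 in JQ1, with 249, 257 and 224 in CON. CAR was above CON without overlap, and Combination lay between JQ1 and CON, nearer to JQ1 (departure -0.71 ± 0.06). WDR43, a ribosome assembly factor, had a departure of -0.63 ± 0.06. For POLR1B, a subunit of RNA polymerase I, the CAR change was masked, at log2 0.02 on top of JQ1 and 0.68 alone. ODC1, the first enzyme of polyamine synthesis and a MYC target, had 274, 278 and 279 CPM in Combination, 299, 306 and 298 in CAR, 282, 285 and 275 in JQ1, with 148, 158 and 169.7 in CON. Each drug alone and the Combination gave nearly the same level, above CON, and the departure was -0.94 ± 0.06 (adjusted p = 2.66e-10 by edgeR). MYC itself had 152, 162 and 157 CPM in Combination, 167, 168 and 164 in CAR, 125, 125 and 129 in JQ1, with 122, 122 and 122 in CON, and its departure of -0.13 ± 0.05 was not called (adjusted p = 0.0523 by edgeR); it was called with total count scaling (-0.15, adjusted p = 0.0219) and without Combination replicate 2 (-0.16, 0.0377) or CON replicate 3 (-0.13, 0.0192), and on the linear scale (-13.4 CPM, 0.0432).

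Cytosolic ribosomal protein genes were negative in 23 of 30 and positive in 0, with a median departure of -0.24, and the CAR change was masked in 21 of them (10.9% of all genes). At an unadjusted p under 0.05 by edgeR, and by DESeq2, 0 were positive as well. The list's median change was 0.00 in Combination, 0.27 in CAR and -0.02 in JQ1. RPS14 had 288, 299 and 311 CPM in Combination, 459.8, 486 and 456 in CAR, 277, 279 and 279 in JQ1, with 322, 313 and 367 in CON. CAR lay above all other groups, and the Combination overlapped none of the JQ1 libraries but was close to them; CON replicate 3 was the highest of its group. The departure of RPS14 was -0.38 ± 0.07, and that of RPS18 -0.40 ± 0.05. Without CON replicate 3 all 30 genes were negative, with a median of -0.32. The negative count was 17 to 30 with any library left out and 19 to 24 under other scalings. Reads of ribosomal protein genes may be shared with their processed pseudogenes.

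Heat shock and chaperone genes were negative in 14 of 21 and positive in 0 by edgeR and by DESeq2 (1 at an unadjusted p under 0.05, with RLE or upper-quartile scaling, with a stricter expression filter, on the linear scale or without CON replicate 1), with a median of -0.30. The negative share was 66.7%, against 18.2% of all genes. HSPA8, the constitutive HSC70 chaperone, had 1380, 1393 and 1413 CPM in Combination, 3540, 3633 and 3674 in CAR, 1401, 1383 and 1397 in JQ1, with 2496, 2507 and 2556 in CON. CAR lay above CON, while Combination and JQ1 overlapped below it, so the CAR change was masked: log2 0.00 on top of JQ1 and 0.52 alone (departure -0.52 ± 0.04). FKBP4, a cochaperone of steroid receptors, had a departure of -0.57 ± 0.06, and the mitochondrial chaperonin HSPD1 of -0.47 ± 0.05. HSP90AA1, the inducible HSP90, was higher under each drug and less than additive (-0.37 ± 0.05).

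**Figure D5:**
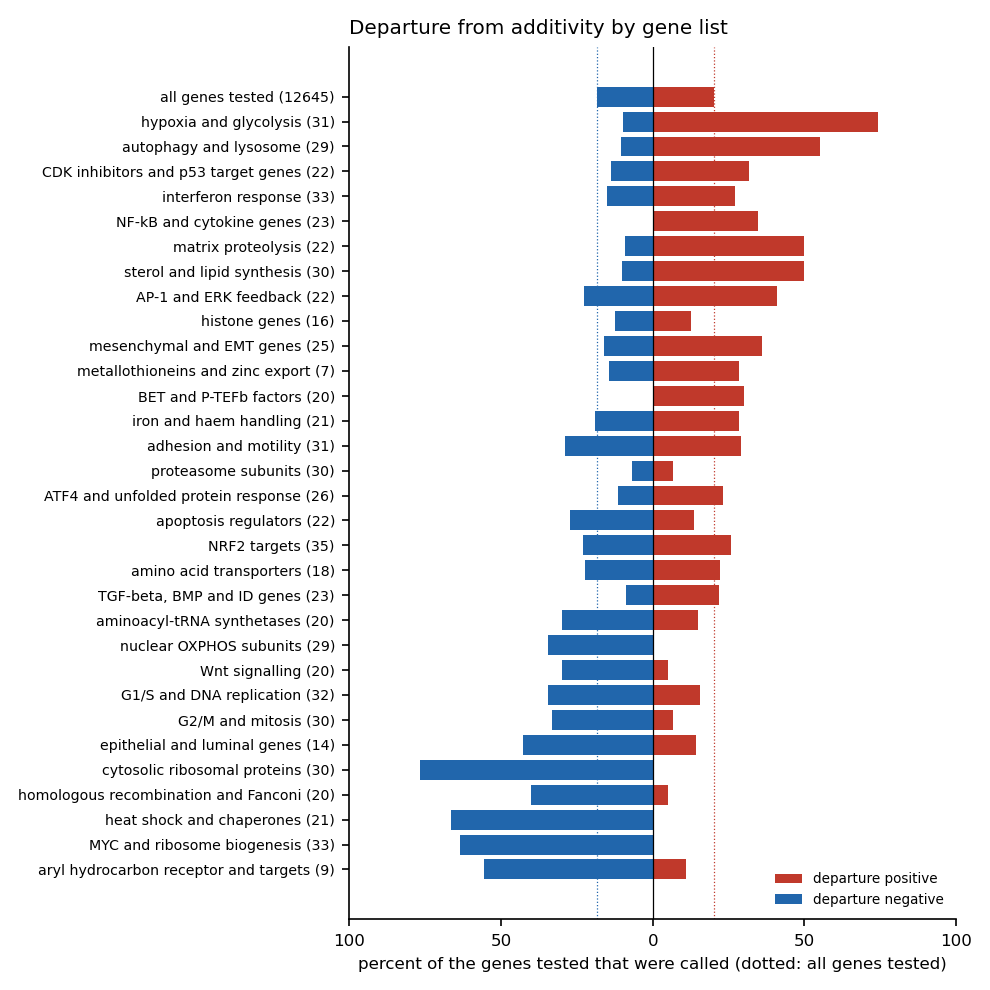
Bars give the percentage of tested genes of each list with a called positive (red, right) or negative (blue, left) departure, with the number tested in brackets, ordered by the median departure; dotted lines repeat the values over all 12645 genes, 20.1% and 18.2%. Hypoxia and glycolysis and the lysosome list extend to the right, and ribosomal proteins, heat shock and ribosome biogenesis to the left.

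CYP1B1 and CYP1A1, cytochrome P450 genes induced by the aryl hydrocarbon receptor, were opposed genes that sided with CAR. CYP1B1 had 15.8, 14 and 14.6 CPM in Combination, 11.3, 11.1 and 13.5 in CAR, 178, 165 and 171 in JQ1, with 29.8, 30.1 and 27.1 in CON. JQ1 was far above every other library, CAR was below CON, and Combination lay just above CAR. The additive level was 70.8 CPM and the departure -2.26 ± 0.10 (adjusted p = 4.82e-12 by edgeR). CYP1A1 had 4.08, 3.84 and 4.16 CPM in Combination, 2.87, 2.21 and 2.03 in CAR, 22.5, 20.3 and 23.2 in JQ1, with 5.13, 5.53 and 6.26 in CON and a departure of -1.21 ± 0.19. TIPARP, an ADP-ribosyltransferase induced by the receptor, had 123, 119 and 123 CPM in Combination, 48.8, 49.0 and 50.8 in CAR, 209, 212 and 208 in JQ1, with 47.0, 45.3 and 46.1 in CON and a departure of -0.89 ± 0.06, and AHR itself of -0.61 ± 0.08. The receptor's repressor AHRR went the other way, with 10.5, 9.13 and 9.48 CPM in Combination, 0.989, 0.565 and 0.520 in CAR, 5.12, 4.81 and 5.42 in JQ1, with 2.12, 1.70 and 0.929 in CON and a departure of 2.10 ± 0.34. Of the 9 genes of this list tested, 5 were negative and 1 positive.

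SLC7A5, the large neutral amino acid transporter LAT1, was the example of a JQ1 change masked by CAR. SLC7A5 had 817, 884 and 861 CPM in Combination, 851, 849 and 835 in CAR, 1677, 1710 and 1684 in JQ1, with 644, 657 and 597 in CON. JQ1 was above all others, and Combination and CAR overlapped. The JQ1 change was log2 0.02 on top of CAR and 1.42 alone, and the departure was -1.40 ± 0.05 (adjusted p = 3.13e-13 by edgeR). BHLHE41, a clock repressor, had 5.91, 8.14 and 8.14 CPM in Combination, 9, 7.76 and 8.69 in CAR, 2.19, 2.49 and 2.5 in JQ1, with 7.15, 7.65 and 6.31 in CON. JQ1 was below the other groups, and Combination overlapped CAR and CON (departure 1.36 ± 0.20). Of 18 amino acid transporters, 4 were negative and 4 positive (22.2% each), near the 18.2% and 20.1% of all genes.

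Antagonism also covered genes that each drug alone lowered. ITGA10, a collagen-binding integrin subunit, had 1, 0.581 and 1.05 CPM in Combination, 1.34, 2.16 and 1.56 in CAR, 1.12, 1.10 and 1.16 in JQ1, with 13.6, 10.5 and 11.1 in CON. Combination, CAR and JQ1 were all far below CON, and the departure was 2.44 ± 0.35. CEMIP, a hyaluronan-degrading protein, had 1.36, 0.698 and 1.23 CPM in Combination, 3.66, 4.62 and 5.05 in CAR, 2.19, 1.38 and 1.75 in JQ1, with 36.3, 30.8 and 26.5 in CON and a departure of 2.12 ± 0.36. SYT2, a synaptotagmin, had a departure of 3.25 ± 0.80, but Combination was at or under 3 counts per library, and the call was lost without Combination replicate 3 (2.69, adjusted p = 0.0804 by edgeR). SAA1, an acute-phase protein, had 1.71, 1.92 and 2.28 CPM in Combination, 2.57, 2.83 and 2.03 in CAR, 0.853, 0.276 and 0.699 in JQ1, with 6.26, 4.57 and 5.96 in CON and a departure of 2.86 ± 0.37. PLAAT4, a phospholipase and acyltransferase, had 2.30, 1.63 and 2.22 CPM in Combination, 6.78, 6.32 and 7.13 in CAR, 0.960, 0.497 and 1.16 in JQ1, with 11.5, 10.8 and 11.98 in CON and a departure of 1.996 ± 0.28. The level that additivity gives was 0.162 CPM for ITGA10, 0.252 for CEMIP, 0.269 for SAA1 and 0.514 for PLAAT4. For ITGA10, CEMIP and SAA1 that is only a few counts per library, since 3 counts equal 0.147 to 0.177 CPM. Whether low background counts add to these departures was not tested.

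Enlarged JQ1 changes in the lower direction included THSD1, a thrombospondin-domain protein, with 2.01, 1.80 and 2.40 CPM in Combination, 13.0, 12.2 and 10.4 in CAR, 9.28, 7.68 and 8.56 in JQ1, with 15.2, 12.5 and 13.0 in CON. The Combination libraries were the lowest without overlap (departure -1.84 ± 0.20). KRT81, a hair keratin, showed the same pattern (-1.62 ± 0.21). CAR and CON overlapped in MAP2, a microtubule protein of dendrites, which was more than additive in the higher direction, with 119.8, 119 and 114 CPM in Combination, 11.3, 12.8 and 13.8 in CAR, 30.6, 34.5 and 31.4 in JQ1, with 9.27, 11.9 and 8.70 in CON and a departure of 1.52 ± 0.12. TNFSF9, the ligand of 4-1BB, was likewise higher (1.42 ± 0.28). Reduced JQ1 changes included CEBPD, an inflammation-linked factor, with 6.38, 5.81 and 6.38 CPM in Combination, 11.2, 10.5 and 10.9 in CAR, 1.92, 2.26 and 2.27 in JQ1, with 12.1, 10.1 and 14.5 in CON and a departure of 1.70 ± 0.20, AMPD3, an AMP deaminase (1.70 ± 0.17), and NAALAD2, a peptidase (-2.05 ± 0.38).

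Other departures were of genes called in neither single-drug contrast, or of CAR changes reduced on top of JQ1. TRPS1, a GATA-type repressor, had 4.13, 3.37 and 2.81 CPM in Combination, 9.10, 7.40 and 8.27 in CAR, 9.49, 9.89 and 9.14 in JQ1, with 8.98, 11.4 and 7.63 in CON. CAR and JQ1 each overlapped CON, and Combination lay below all 3 (departure -1.30 ± 0.21). ANKRD37, a HIF target, was higher in Combination only (0.96 ± 0.27), and ENOX1 lower (-1.01 ± 0.28). SAP25, a SIN3-associated protein, had 12.1, 12.1 and 12.6 CPM in Combination, 3.21, 3.18 and 2.81 in CAR, 6.61, 6.02 and 7.80 in JQ1, with 6.46, 4.89 and 7.58 in CON; CAR was below CON and Combination above it (1.90 ± 0.20). CFB, complement factor B, had a CAR change of log2 0.31 on top of JQ1 and -1.09 alone (1.40 ± 0.21). ADAMTS6, a metalloprotease, had a departure of -1.43 ± 0.13.

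Several of the extreme departures rest on few counts. AKR1B10, an aldo-keto reductase, had 0.177, 0.0581 and 0.585 CPM in Combination, 10.5, 12.3 and 11.4 in CAR, 0.107, 0.0552 and 0.0582 in JQ1, with 0.592, 0.425 and 0.244 in CON and a departure of -2.95 ± 0.96 with an adjusted p of 0.0493 by edgeR, which ranged from 0.0504 to 0.22 without Combination replicate 1 or 2, without any CAR or JQ1 library, or without CON replicate 2. The AKR1B10 call was also lost with RLE scaling (adjusted p = 0.0508 by edgeR). FGF18, a growth factor, had a departure of 2.21 ± 0.57 with CAR at or under 3 counts per library. HAS2, a hyaluronan synthase, and TESMIN had -1.59 ± 0.56 and -1.95 ± 0.79 with Combination at or under 3 counts, and HAS2 lost its call without Combination replicate 1 or JQ1 replicate 1 or 3, TESMIN without Combination replicate 2 or JQ1 replicate 2 or 3. CYP2E1 had a departure of 2.23 ± 0.57 but is also a hepatocyte marker, with 12.8, 9.65 and 7.08 CPM in Combination, 0.544, 0.205 and 0.416 in CAR, 4.16, 3.92 and 3.67 in JQ1, with 0.641, 0.425 and 1.12 in CON; the part of the hepatocyte markers in this result was not tested, and Combination replicates 2 and 3 were also above every JQ1 library.

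Cell cycle genes, whose median JQ1 changes were the lowest of all lists, had more negative than positive departures. The negative share was 34.4% for G1/S, 33.3% for G2/M and 40% for homologous recombination, against 18.2% of all genes. The positive share was 15.6%, 6.67% and 5%, against 20.1%. Of 32 genes of G1/S and DNA replication, 11 had a negative and 5 a positive departure (3 positive without JQ1 replicate 2), with a median of -0.22 beside a median JQ1 change of -2.24. RRM2, the ribonucleotide reductase subunit, had 8.74, 8.66 and 11.9 CPM in Combination, 187, 193 and 189.7 in CAR, 20.6, 22.4 and 20.2 in JQ1, with 174, 178 and 174 in CON and a departure of -1.22 ± 0.10. MCM7, a subunit of the replicative helicase, had -0.60 ± 0.05, and TYMS, thymidylate synthase, -0.56 ± 0.07. Of 30 genes of G2/M and mitosis, 10 were negative and 2 positive. The positive count was 0 or 1 without any CAR or JQ1 library but JQ1 replicate 1, without Combination replicate 3 or without CON replicate 1 or 2, and the negative count was 16 without Combination replicate 3 and 6 without JQ1 replicate 1. Of 20 genes of homologous recombination and the Fanconi pathway, 8 were negative and 1 positive (3 positive without CON replicate 3, and 0 without Combination replicate 2 or 3 or JQ1 replicate 1 or 3). In bulk samples, fewer cells in cycle and less RNA per cycling cell cannot be told apart.

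The cyclin-dependent kinase inhibitor CDKN1A (p21) had 209.6, 221 and 214 CPM in Combination, 51.8, 50.5 and 49.1 in CAR, 166, 166 and 169 in JQ1, with 54.2, 57.0 and 56.5 in CON. CAR lay below CON, JQ1 above and Combination highest, with a departure of 0.51 ± 0.06. Of 22 genes of its list, 7 were positive and 3 negative, and ZMAT3, a p53 target, was negative at -0.90 ± 0.10. Apoptosis regulators were positive in 3 (13.6%) and negative in 6 (27.3%) of 22, against 20.1% and 18.2% of all genes. Of 20 BET and P-TEFb factors, whose response marks BET inhibition, 6 were positive and 0 negative by edgeR and by DESeq2 (2 at an unadjusted p under 0.05, with total count scaling or without CON replicate 1 or 2, and 1 without Combination replicate 1 or 3). HEXIM1, the inhibitor of P-TEFb, had a departure of 0.18 ± 0.06 beside a JQ1 change of 2.07, and BRD2, a BET protein, of 0.21 ± 0.05.

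Signalling, matrix and lipid lists follow, to be read against the 20.1% positive and 18.2% negative of all genes. Of 23 NF-kB and cytokine genes, 8 were positive and 0 negative by edgeR and by DESeq2 (2 negative without CON replicate 3, and 1 at an unadjusted p under 0.05 or without Combination replicate 2 or 3), and of 33 interferon response genes 9 were positive (27.3%) and 5 negative (15.2%), shares near those of all genes. Matrix proteolysis genes were positive in 11 and negative in 2 of 22 (4 negative without CON replicate 2). MMP1, a collagenase, had a departure of -0.29 ± 0.23 and was not called (adjusted p = 0.335 by edgeR). AP-1 and ERK feedback genes were positive in 9 and negative in 5 of 22, among them FOSL1, an AP-1 subunit, with 51.7, 59.2 and 55.4 CPM in Combination, 398, 387 and 408 in CAR, 31.1, 28.8 and 32.8 in JQ1, with 306, 332 and 332 in CON and a departure of 0.55 ± 0.08. Sterol and lipid synthesis genes were positive in 15 and negative in 3 of 30 (5 negative without CON replicate 2), and 12 of the 30 were cases of antagonism.

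In the remaining lists the counts were smaller or ran both ways. Wnt signalling genes were positive in 1 and negative in 6 of 20 (2 positive without JQ1 replicate 3 and 3 without CON replicate 3), TGF-β, BMP and ID genes in 5 and 2 of 23 (4 negative without CON replicate 3), and adhesion and motility genes in 9 and 9 of 31. Nuclear genes of oxidative phosphorylation were negative in 10 and positive in 0 of 29 by edgeR and by DESeq2, with 16 negative without CON replicate 3 and 1 positive at an unadjusted p under 0.05 or without CON replicate 1. Proteasome subunits were positive in 2 and negative in 2 of 30, the lowest share of calls among the lists above 5 genes, and negative in 10 without CON replicate 3. Aminoacyl-tRNA synthetases were positive in 3 (1 without Combination replicate 2 or CAR replicate 3) and negative in 6 of 20. Histone genes were positive in 2 (4 without CON replicate 1) and negative in 2 of 16. Iron and haem genes were positive in 6 and negative in 4 of 21. The list of metallothioneins and zinc export was positive in 2 and negative in 1 of 7, the zinc exporter SLC30A1.

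The scale on which additivity is judged changed the sign of some departures, among genes that rose as well as genes that fell. On the linear scale, where CPM rather than log2 values are added, the departure was called in 5461 genes, 2701 positive and 2760 negative. Of the 4841 genes called on the log2 scale, 3955 kept their sign, 62 had the opposite sign and 824 were not called. All 110 genes that were more than additive in the higher direction were also positive on the linear scale. Of the 166 that were more than additive in the lower direction, 32 were negative and 23 positive there. Of the 356 less than additive genes in the higher direction, 2 were positive there. MARCKS, below the log2 rule, was 16.1 CPM above the linear sum, since the single-drug falls add to more than its level in CON allows. All 421 less than additive genes in the lower direction were positive on both scales. Where both drugs move a gene the same way, the log2 rule gives a higher level than the linear sum. A positive sign on the log2 scale therefore carries over by construction, for these 421 genes and for the 110 above.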

How the data were processed

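RNA sequencing of MDA-MB-231 cells was deposited as 1 table of raw counts per gene for each of 12 samples. Per the submitters' processing notes, Trimmomatic, HISAT2, HTSeq and hg38 were used; the sources used here give no version, annotation or strand setting. Per the labels' protocols, RNA of integrity 7 or more entered a stranded poly(A) library kit. Groups follow the treatment labels, with 3 samples each.

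Counts were analysed as deposited with edgeR 4.0.16 in R 4.3.3. Genes passed its expression filter (minimum count 10, minimum total 15). TMM scaling and a robust quasi-likelihood fit of all 4 groups in 1 model gave each contrast, and genes were called at an adjusted p under 0.05 over 12645 genes. CPM are scaled by TMM factors, which were 0.921 to 0.933 in Combination and 1.07 to 1.08 in CON. Total counts of 17449715 to 19754456 per library put 3 counts at 0.147 to 0.177 CPM on that scale. Standard errors are those of the fit.

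Each called gene was sorted by the calls and directions of CAR minus CON and JQ1 minus CON. Genes named in the text are the 12 highest and 12 lowest departures of at least 5 CPM, 3 per class, up to 4 per list with the smallest adjusted p and up to 2 that go against the list, and 10 fixed genes; 2 genes that this rule names are not reported here. The members and lists were chosen with earlier results of these data known, so list counts are descriptions. Alternatives were other scalings, filters, DESeq2 1.42.0, a replicate block, a stricter threshold, additivity in CPM, and each library left out. The pipeline was tested on simulated data. Positions come from GENCODE v29 and promoters from RefSeq.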

Additional observations from a re-analysis of the deposited data

Results flagged for a closer look

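In 666 genes the CAR change was called in opposite directions with and without JQ1, and in 216 genes the JQ1 change was called in opposite directions with and without CAR; in both sets the departure, which is the test of that difference, was called. 281 of the 666 were higher and 385 lower under CAR alone, and 106 of the 216 were higher and 110 lower under JQ1 alone. SAA1, an acute-phase protein, had a departure of 2.86, with CAR lowering it without JQ1 and raising it on top of JQ1. AHRR, the repressor of the aryl hydrocarbon receptor, had a departure of 2.10, also lower with CAR alone and higher with CAR on JQ1. BATF3, a leucine zipper transcription factor, had 0.591, 0.814 and 1.11 CPM in Combination, 10.8, 9.76 and 9 CPM in CAR, 2.72, 2.93 and 2.56 CPM in JQ1 and 7.74, 7.07 and 8.31 CPM in CON, a departure of -2.05.

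TMEM140, a transmembrane protein, had 16, 15.8 and 16 CPM in Combination, 5.64, 5.29 and 5.1 CPM in CAR, 6.45, 5.52 and 4.6 CPM in JQ1 and 7.4, 7.33 and 7.63 CPM in CON, a departure of 1.999. Each drug alone lowered TMEM140 and both together raised it. HLA-DMA, a chaperone of MHC class II loading, had a departure of 1.47. GJA1, the gap junction protein connexin 43, had a departure of -1.42; each drug alone raised it, and JQ1 lowered it on top of CAR.

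ALB, the albumin gene and a hepatocyte marker outside the genes tested as members, had 1429 counts in Combination replicate 1 and at most 10 in the other libraries. Without Combination replicate 1, 4332 genes were called in the departure.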

How the results depend on the processing

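The departure was called in 4818 genes with RLE scaling, 4837 with upper-quartile scaling, 4950 with scaling by total count, 4827 of 12147 with at least 1 CPM in at least 3 libraries, 4699 of 16384 with no filter, 4335 with DESeq2 and 4256 to 5864 with 1 library left out. Positive departures made up 52.4% of the calls, 56.9% when upper quartiles set the scale and 47.4% when total counts did. At an adjusted p under 0.01, opposed genes numbered 1190, genes with a reversed CAR change 326 and genes with a reversed JQ1 change 116. With 1 library left out, positive calls ran from 2256 to 3027, negative calls from 1982 to 2837, synergy from 952 to 1305, antagonism from 1427 to 1975, opposed genes from 1604 to 2360, Combination only from 188 to 253, masked CAR changes from 1225 to 1499, masked JQ1 changes from 330 to 434, reversed CAR changes from 519 to 906 and reversed JQ1 changes from 186 to 302; the cause was not tested.

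Of 181 named genes, 15 had the opposite sign when additivity was judged in CPM, a difference in construction. On that scale 7 of them were called and 8 were not (FGF18, FOXM1, RAD51AP1, LAMB3, CAV1, DDX60, TGFB2 and TCF7L1, adjusted p 0.0551 to 0.961 by edgeR), and HMOX1 had no called log2 departure. Their departures in CPM were -0.993 for FGF18, 16.1 for MARCKS, 2591 for FTH1, -47.2 for HEXIM1, -11.3 for FOXM1, 0.654 for RAD51AP1, -11.9 for FANCD2, -5.92 for LAMB3, 19.8 for CAV1, 0.0639 for DDX60, -49.95 for FOSL1, 8.24 for TGFB2, -101 for BMP4, 0.298 for TCF7L1 and -60.6 for HMOX1. FTL (18823 CPM, adjusted p = 1.92e-09 by edgeR) and MYC (-13.4 CPM, 0.0432) were called on that scale and not on the log2 scale.

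Deviations of same-numbered libraries correlated between -0.0715 and 0.124, so no strong pairing by replicate number was seen. With 3 replicates per group this cannot show that the samples were unpaired. With a replicate block 4785 genes were called, and of the named genes AKR1B10 (adjusted p = 0.0629 by edgeR) and FOXM1 (0.0514) lost their calls. Genes near 3 counts per library are limited by depth.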
